A study of Arabidopsis thaliana with 8 samples.

Results

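CG cytosines inside protein-coding genes of the chromosome arms accounted for 21412 of the 71531 rows in 6 deposited lists of differentially methylated cytosines (DMCs), or 16656 of 58933 distinct cytosines. A row was taken when its cytosine, on either strand, stands before a guanine in TAIR10, lies between the start and the end of a protein-coding gene, and lies outside the centromeric stretches of the 5 chromosomes and 1 further stretch of chromosome 2, whose borders are given with the processing. Each list names the cytosines at which bisulfite sequencing found the pooled plants of a selected population to differ from those of the ancestral population. The plants belong to CVL39 and CVL125, a pair of recombinant inbred lines from a cross of the Arabidopsis thaliana accessions Ler and Cvi. The selected plants descend from 5 generations of selection in dynamic landscapes, followed by 2 generations without selection. The ancestral plants were not selected. According to the authors, plants of both kinds were grown together in the generations without selection. Landscapes 1, 5 and 6 gave 1 selected pool each per line. DNA of 4 plants aged 25 days, taken from all tissue above ground, made up a pool, so the plants within a pool cannot be told apart, and all 3 lists of a line were made against a single ancestral pool. The lists hold a position, a strand and a p-value for each cytosine, but no methylation level, so neither the size nor the direction of a difference is known.

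Methylation of CG dinucleotides within transcribed genes, called gene body methylation, is common in plants. It is copied after DNA replication by the methyltransferase MET1 together with VIM proteins, which bind the hemimethylated CG, so that a gain or loss can be inherited through the germline. In Arabidopsis it is typically found in the exons of long, moderately and constitutively expressed genes and is usually low around the start and the end of transcription.

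Examples of recurrent sites are shown first, 4 that were listed in every population of 1 line and the 4 found in the most lists. The windows of 30 bases come from the RefSeq copy of TAIR10 and are written 5′ to 3′ along the coding strand of the gene. Capitals mark 1 listed CG per window, and a CG in lower case may be listed too. Such are chr1:23619286 in SPPL2 and chr4:13706610 in AT4G27400, each in all 3 CVL39 lists. Others are chr2:280825 in AT2G01630, in CVL125 landscape 6, and chr1:2308498 in ftsh10, in CVL125 landscapes 1 and 6. In each of the first 4 windows a cytosine of the CG in capitals was listed in all 3 populations of 1 line. The first is from SPPL2, a signal peptide peptidase-like gene (chr1:23619284-23619313), and the second from AT4G27400, a late embryogenesis abundant protein-like gene (chr4:13706608-13706637), both recurrent in CVL39. The third is from AT2G01630, a glycosyl hydrolase family 17 gene (chr2:280816-280845), and the fourth from ftsh10, a mitochondrial protease gene (chr1:2308476-2308505), both recurrent in CVL125.
SPPL2: aacggggcaactgtCGgttcacagcaaagg
AT4G27400: tccggctatggactCGtctgcagaaagtag
AT2G01630: atacaagctgctctCGtcacggccaatctc
ftsh10: acttgcatgactctCGggggccgggcagct
Only 4 cytosines of the 16656 were in 5 of the 6 lists and none was in all 6, and those 4 are the next windows. AT2G35030 encodes a pentatricopeptide repeat protein (chr2:14762304-14762333), AT3G25210 a tetratricopeptide repeat-like protein (chr3:9181301-9181330), AT4G35140 a WD40 repeat-like protein (chr4:16724177-16724206) and AT5G15390 a SpoU family tRNA/rRNA methyltransferase (chr5:4996898-4996927). All 8 windows lie in coding exons.
AT2G35030: ggattggcaaagaaCGgtaaggtagatgaa
AT3G25210: tatgttggcgaattCGttgtctccggatat
AT4G35140: tggtggtagtgagaCGaatgttgatagtat
AT5G15390: aataagtgacgaagCGttggagttatcaga

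The lists of CVL39 held 3367 such CG DMCs in landscape 1, 4055 in landscape 5 and 4004 in landscape 6, which are 0.115%, 0.138% and 0.136% of the 2933419 CG cytosines in arm gene bodies. Those of CVL125 held 3612, 4677 and 1697, or 0.123%, 0.159% and 0.0579%. The list of CVL125 landscape 6 was the shortest and that of CVL125 landscape 5 the longest, with CVL39 in between, so the ranges of the lines overlapped. The lines had 3809 ± 383 and 3329 ± 1510 (mean ± SD, n = 3 populations each). Their difference was larger than the SD of CVL39 and smaller than that of CVL125 (p = 0.8 and adjusted p = 0.88 by a two-sided exact permutation test). In each list, 92.5 to 94.1% of the arm CG DMCs lay in protein-coding genes, where 71.6% of all arm CG cytosines lie. Only 1497 arm CG rows over the 6 lists lay elsewhere.

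The p-values showed how coarse the calls are. The median deposited p-value of the CG DMCs was 0.0152 in 4 of the 6 lists, 0.0130 in CVL125 landscape 5 and 0.0256 in CVL125 landscape 6. A single value, 0.0476, was shared by 13.8 to 21.0% of the CG DMCs of a list, and the 10 most frequent values covered 48.0 to 55.0%. Values of 0.005 or below were held by 27.4 to 32.1% of the CG DMCs in 5 lists and by 16.1% in CVL125 landscape 6. The read depth behind each cytosine is not given in the lists and is unknown here, and so is the set of cytosines that could have been called.

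CG DMCs were rare at the start of genes and concentrated beyond their midpoint. Each gene was divided along the direction of transcription into 3 segments of equal length (start, middle and end segment), for cytosines in exactly 1 gene, and each list was compared with all arm CG cytosines of the genes it hit. The end segment held 46.1%, 46.6% and 46.5% of the CG DMCs in CVL39 landscapes 1, 5 and 6 and 47.3%, 45.6% and 45.4% in those of CVL125. The least precise of these, in CVL125 landscape 6, lay between 42.9 and 47.8% (95% interval, Clopper-Pearson exact method). All 6 lists stood close together and above the 31.6 to 31.9% of all CG cytosines of the same genes that lie there.

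The start segment held 14.2%, 13.1% and 13.0% of the CG DMCs in CVL39 and 13.3%, 13.2% and 12.5% in CVL125, against 38.2 to 38.6% of the background. Every list was below its background, with a difference of -25.2 ± 0.552 percentage points (list minus background, mean ± SD, n = 6 lists; exact sign-flip permutation test, p = 0.031, the smallest that 6 lists allow, adjusted p = 0.031). Lists exceeded the background by 10.6 ± 0.922 points in the middle segment and by 14.5 ± 0.694 points in the end segment, in 6 of 6 lists each and with the same exact permutation p = 0.031 (adjusted p = 0.031). Since 1 ancestral pool stands behind the 3 lists of each line, the 6 are not independent and this p is too small to that extent. A CG unmethylated in both pools cannot be listed, yet it counts in the background, and methylation levels are not known here. The tests of place, and those of exons below, therefore cannot tell where CG DMCs lie from where CG methylation lies.

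Finer steps along the gene gave a steady rise followed by a sharp drop. With 10 bins of equal length per gene, the share of CG DMCs in bin 1, at the start, was 0.0880 ± 0.00280 of the background share in CVL39 (mean ± SD, n = 3 lists) and 0.0774 ± 0.00785 in CVL125. The ratio passed 1 in bin 4, at 1.03 ± 0.0318 and 1.06 ± 0.0111. It was highest in bin 8, at 1.73 ± 0.0110 and 1.77 ± 0.0599, almost as high in bin 9, and then 0.721 ± 0.0355 and 0.718 ± 0.0547 in bin 10. The low last step belongs to the gene's extreme end. Within 200 bp of the end the ratio averaged 0.512 in CVL39 and 0.449 in CVL125, whereas from 200 to 500 bp before the end it averaged 1.85 and 1.78. The corresponding distances from the start gave 0.140 and 0.129, then 0.216 and 0.220, so the depletion reached farther into the gene from its start than from its end.

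**Figure D1:**
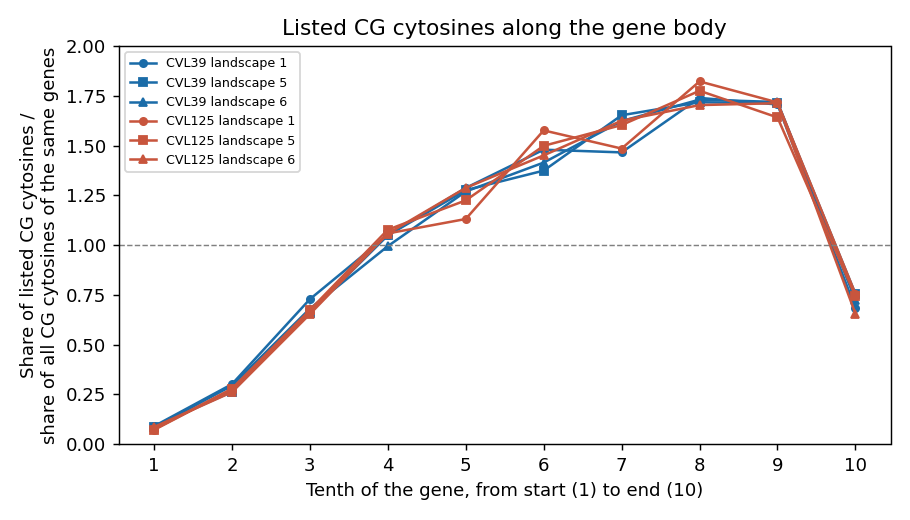
Share of CG DMCs divided by the share of all CG cytosines of the same genes (y axis, ratio) in each of 10 bins of the gene from start to end (x axis), 1 line for each of the 6 lists. The lists run close together, from under 0.1 in bin 1 to a maximum in bin 8 or 9, and all fall below 1 in bin 10.

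Coding exons held nearly all of the CG DMCs. They contained 90.5%, 90.2% and 90.7% in CVL39 landscapes 1, 5 and 6 and 91.2%, 90.1% and 92.5% in CVL125, against 68.7 to 69.7% of all CG cytosines of the same genes. The excess was 21.7 ± 0.629 percentage points in 6 of 6 lists (n = 6, exact sign-flip permutation test, p = 0.031, adjusted p = 0.031). For exons as a whole, untranslated parts included, the shares were 92.8%, 92.8% and 93.2% in CVL39 and 93.7%, 92.5% and 94.7% in CVL125, an excess of 9.47 ± 0.684 points in 6 of 6 lists (n = 6, exact permutation p = 0.031, adjusted p = 0.031).

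Introns and untranslated exons were correspondingly poor in CG DMCs. Introns held 7.04 ± 0.210% in CVL39 and 6.37 ± 1.13% in CVL125 (mean ± SD, n = 3), where 16.3% and 16.1% of the background lies. Between 20 and 80% of the gene's length, away from both ends, the ratio to the background in introns was 0.402 ± 0.0151 and 0.359 ± 0.0656. Untranslated exons before the midpoint of the gene held 10 to 27 CG DMCs per list, 0.630 ± 0.0245% in CVL39 and 0.602 ± 0.0167% in CVL125, against 9.65% and 9.62% of the background. Those beyond the midpoint held 1.85 ± 0.130% and 1.76 ± 0.129%, against 5.08% and 4.98%.

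The rise along the gene was also present within coding sequence alone. Of the coding CG DMCs, 12.9 ± 0.534% in CVL39 and 12.7 ± 0.671% in CVL125 lay in the start segment of the gene, where 32.6% and 32.7% of the coding CG cytosines lie. The end segment held 46.9 ± 0.233% and 46.3 ± 0.844%, against 33.2% in both.

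**Figure D2:**
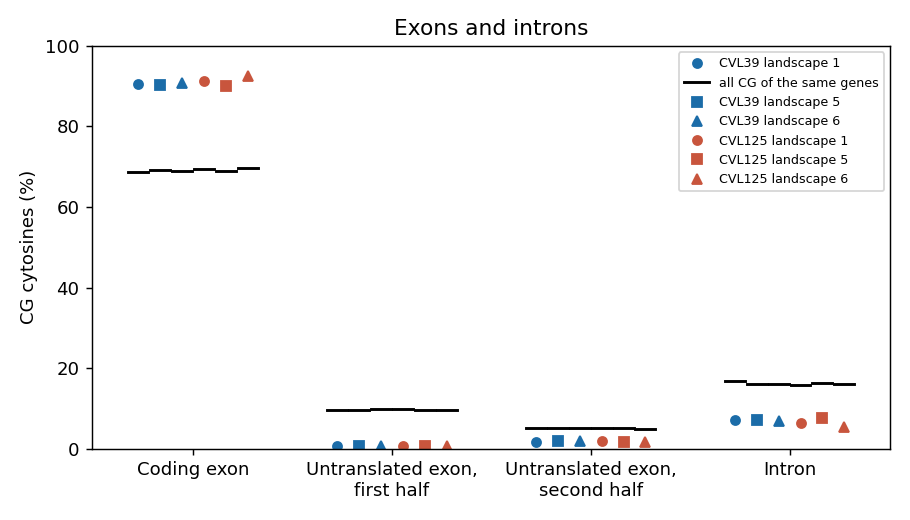
Percent of CG DMCs (symbols, 1 per list) and of all CG cytosines of the same genes (black bars) in coding exons, untranslated exons before or beyond the midpoint of the gene, and introns. Symbols lie above the bars in coding exons only, near 90%, and below them in the other 3 classes.

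CG DMCs fell more often on the coding strand than on the template strand. The coding strand held 64.5%, 64.1% and 65.5% in CVL39 landscapes 1, 5 and 6 and 66.2%, 65.9% and 64.6% in CVL125, where the background is even at 50%. The excess was 15.1 ± 0.849 points in 6 of 6 lists (n = 6, exact sign-flip permutation test, p = 0.031, adjusted p = 0.031). It was present for genes on the forward strand (64.9 to 67.7%) and on the reverse strand (63.1 to 65.6%) of the chromosome, and it was smaller in the end segment than in the middle segment in every list.

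Base composition moved with this strand difference. Listed cytosines had on average 9.88 to 9.997 cytosines on their own strand within 25 bases to either side, themselves included, against 11.1 to 11.2 for all CG cytosines of the same genes. Within classes of equal local cytosine number the coding strand was still ahead in every list, by 10.6 to 19.2 points with under 6 cytosines nearby and by 1.96 to 8.48 points with 15 or more. With the background matched on that number, a setting chosen after seeing the data, the coding-strand excess was 12.6 points. What part base composition has in the strand difference was not tested further.

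A CG has a cytosine on each strand, and both are methylated alike where maintenance is complete. Both strands of a CG were listed for 1.69%, 2.18% and 2.47% of the listed CG dinucleotides in CVL39 landscapes 1, 5 and 6 and for 2.18%, 2.58% and 0.789% in CVL125. Nearly all listed dinucleotides therefore had only 1 strand listed, and the share with both was lowest in CVL125 landscape 6, the shortest list. Depth is unknown, so an unlisted partner may be one that could not be called. Whether methylation differed between the strands was not tested. With both strands of a CG counted once, another listed CG within 50 bp in the same gene was found for 11.1 to 16.7% of the listed dinucleotides. Where a gene held several, the median distance between neighbours was 160 to 294 bp. A guanine before the cytosine was 1.16 to 1.28 times as frequent, and a guanine after the CG 1.197 to 1.35 times as frequent, as in the background.

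Genes with a CG DMC were long and had many exons. Of the 23446 arm genes with a CG, 2494 (10.6%), 2935 (12.5%) and 2902 (12.4%) were hit in CVL39 landscapes 1, 5 and 6, and 2657 (11.3%), 3325 (14.2%) and 1424 (6.07%) in CVL125. The median length of the hit genes was 3281, 3221 and 3220 bp in CVL39 and 3185, 3227 and 3253 bp in CVL125, against 2148.5 bp for all arm genes. The 6 medians lay within 96 bp of each other and exceeded that of all genes by 1083 ± 32.7 bp (n = 6, exact sign-flip permutation test, p = 0.031, adjusted p = 0.031). Hit genes also had a median of 156 to 163 CG cytosines, against 112 in all arm genes. A gene with more CG cytosines is hit more easily wherever calls fall. This test therefore cannot tell gene length from the number of CG cytosines, and no conclusion is drawn from its p. Hit genes had a median of 7 exons in every list against 4 in all arm genes, and 46.8 to 47.9 CG cytosines per kb against 49.0.

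A longer gene offers more cytosines, so the density per 1000 CG cytosines was also compared. In CVL39 it was 0.544 ± 0.0831 in genes under 1 kb, 0.640 ± 0.0842 from 1 to 2 kb, 1.25 ± 0.163 from 2 to 3 kb, 1.63 ± 0.168 from 3 to 4 kb, 1.82 ± 0.117 from 4 to 6 kb and 1.97 ± 0.124 in genes of 6 kb and over (mean ± SD, n = 3 lists). CVL125 gave the same order, from 0.362 ± 0.200 under 1 kb to 1.62 ± 0.754 at 6 kb and over, with landscape 6 lowest in every class. In every list each of the 4 classes from 2 kb upwards exceeded both classes below 2 kb. The share of genes hit rose from 1.75% under 1 kb to 42.3% at 6 kb and over in CVL39, averaged over the 3 lists.

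The poor ends of genes take up more of a short gene, so the density was also counted only at 500 bp or more from both ends. In that interior it was 0.877 ± 0.0502 per 1000 CG cytosines in CVL39 genes of 1 to 2 kb, 1.69 ± 0.205 from 2 to 3 kb, 2.11 ± 0.222 from 3 to 4 kb, 2.21 ± 0.127 from 4 to 6 kb and 2.25 ± 0.142 at 6 kb and over (n = 3). In CVL125 it was 0.771 ± 0.358 from 1 to 2 kb, 1.58 ± 0.707 from 2 to 3 kb and between 1.83 and 1.91 in the 3 longer classes. The interior thus differed between length classes below 3 kb and was level above 3 kb, within the spread of the lists.

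Density over all genes was also higher with more exons. In CVL39 it was 0.823 ± 0.115 per 1000 CG cytosines in genes of 1 exon, 1.004 ± 0.158 with 2 or 3 exons, 1.18 ± 0.117 with 4 to 7, 1.73 ± 0.182 with 8 to 14 and 1.82 ± 0.0442 with 15 or more. Among genes of 2 to 4 kb alone the contrast was smaller. There, 1-exon genes had 1.14, 1.37 and 1.35 per 1000 in CVL39 landscapes 1, 5 and 6, and genes of 15 or more exons had 1.62, 2.05 and 1.45, the latter from only 34 to 48 calls per list. In CVL125 the density over all genes was 0.660 ± 0.293 with 1 exon and 1.54 ± 0.763 with 15 or more. At 2 to 4 kb, CVL125 genes of 1 exon had 1.56, 1.65 and 0.628 per 1000 in landscapes 1, 5 and 6. Genes of 15 or more exons had 1.66, 2.17 and 0.896 there, higher in each list but from only 21 to 51 calls. Genes of 8 to 14 exons had 1.48, 1.96 and 0.594, above 1-exon genes in landscape 5 and below them in landscapes 1 and 6.

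**Figure D3:**
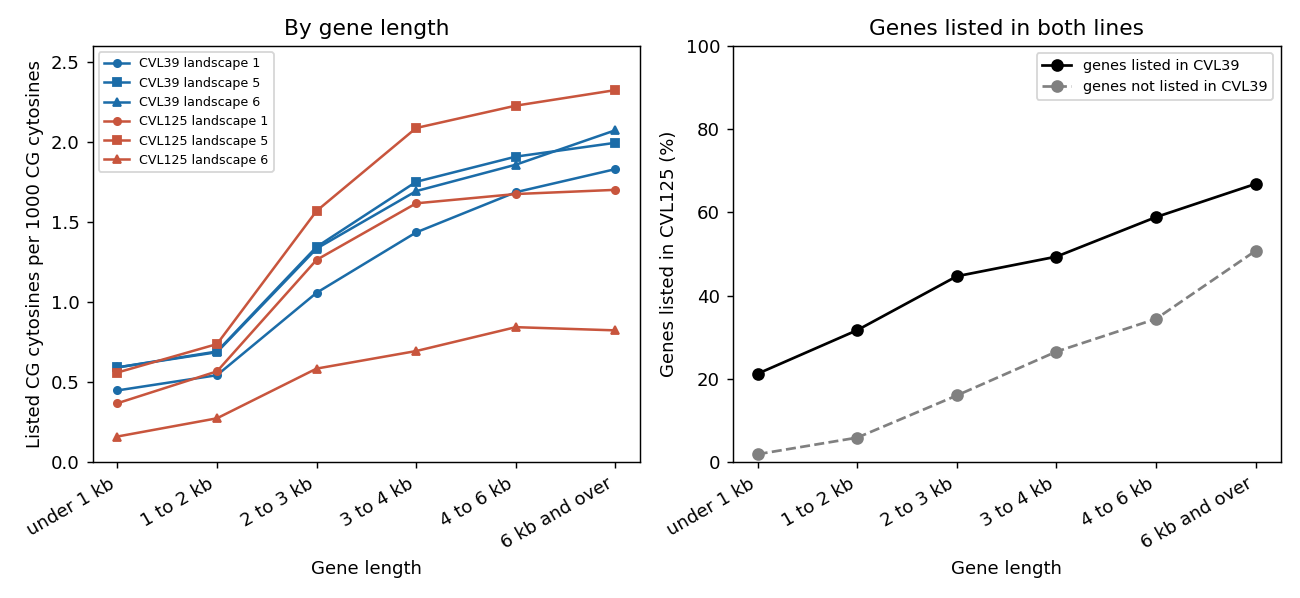
Left, CG DMCs per 1000 CG cytosines (y axis) by gene length class (x axis), 1 line per list, which rise from under 1 to about 2 in 5 lists and stay below 1 in CVL125 landscape 6. Right, percent of genes listed in CVL125 in any population (y axis), for genes listed (solid) or not listed (dashed) in CVL39, by the same length classes, where the solid line lies above the dashed line in each class.

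Chromosome 2 had the lowest density in CVL39. Its arm genes held 0.709, 0.979 and 0.887 CG DMCs per 1000 CG cytosines in landscapes 1, 5 and 6, against 1.09 to 1.51 on the other 4 chromosomes. In CVL125 chromosome 2 held 1.18, 1.25 and 0.514 per 1000. Chromosome 3 was highest in each CVL125 list, at 1.54, 1.89 and 0.747.

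Most hit genes carried a single CG DMC. One call was found in 76.4%, 73.5% and 73.9% of the hit genes in CVL39 landscapes 1, 5 and 6 and in 74.4%, 71.6% and 86.2% of those in CVL125, and the largest number in 1 list was 6 to 9. Over the 3 populations of a line, the distinct positions numbered 8799 in 5114 genes in CVL39 and 7986 in 4844 genes in CVL125. Genes with 10 or more distinct positions numbered 6 in CVL39 and 5 in CVL125. The 10% of genes with the most positions held 25.1% and 24.6% of them, so the calls were spread over many genes.

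SCL14, a GRAS family transcriptional regulator linked to detoxification genes (chr1:2313581-2316507), had 14 distinct positions in CVL39, the most of any gene there together with AT1G27570. Its counts were 5, 7 and 8 in CVL39 landscapes 1, 5 and 6 and 0, 2 and 0 in CVL125. Each CVL39 count was thus above each CVL125 count, as in 1.54% of arm genes, and SCL14 was chosen for its many positions in CVL39. All 16 SCL14 positions of both lines were exonic and none lay in the start segment. AT1G27570, a phosphatidylinositol 3- and 4-kinase family gene (chr1:9575538-9582376), had 8, 3 and 6 calls in CVL39 and 3, 2 and 2 in CVL125. It departed from the general slope, with 7 of its 17 positions in the start segment, and 7 positions were not exonic. AT1G27570 also held a listed non-CG cytosine, as did 2373 of all 27444 protein-coding genes. Among the genes named here for their calls, so did AT4G27400, AT4G27050, GLR2.2, GLR2.3, SPPL2, ftsh10, PPR40 and AT2G36810, and the others did not.

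AT4G27400 (chr4:13705267-13706843), a short gene for its number of calls, had 5, 4 and 9 in CVL39 and 0, 1 and 0 in CVL125. Of its 12 positions, 11 lay in the end segment, between 80.6 and 86.0% of the gene's length, which includes the window shown above. AT4G27050, an F-box/RNI-like gene (chr4:13575671-13578061), had 4, 5 and 4 calls in CVL39 and 1, 2 and 1 in CVL125, all 15 of its positions being exonic. In both genes each CVL39 count was above each CVL125 count, as in 1.54% of arm genes, and both were chosen for their many positions in CVL39.

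In CVL125 the most distinct positions, 12, were found in AT2G01630 (chr2:279282-282123), whose family of enzymes cleaves beta-1,3-glucans. It had 9, 8 and 3 calls in CVL125 landscapes 1, 5 and 6 and 0 in every CVL39 list. Its positions were all in coding exons and all between 45.5 and 86.4% of its length. AT4G01810, a Sec23/Sec24 family gene of vesicle transport (chr4:776414-780355), had 8, 3 and 2 calls in CVL125 and 0, 1 and 1 in CVL39, and none of its 12 positions lay in the end segment. In AT2G01630 and AT4G01810, chosen for their many positions in CVL125, each CVL125 count was above each CVL39 count, as in 0.891% of arm genes. AT5G56890, a protein kinase gene (chr5:23010423-23016015), had 4, 6 and 0 calls in CVL125 and 4, 5 and 1 in CVL39, with 14 of its 16 positions in the end segment.

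The neighbouring glutamate receptor-like channel genes GLR2.2 (chr2:10522548-10526059) and GLR2.3 (chr2:10516780-10520684) were hit in both lines. GLR2.2 had 1, 6 and 6 calls in CVL39 and 4, 0 and 3 in CVL125, and GLR2.3 had 6, 2 and 1 in CVL39 and 4, 5 and 2 in CVL125. Neither gene separated the lines. They are close paralogs, and reads of one that aligned to the other cannot be recognised in these lists, so their counts are uncertain.

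A second set of named genes had positions listed in all 3 populations of a line. SPPL2 (chr1:23618012-23622396), whose family cleaves proteins within membranes, had exactly 3 calls in each CVL39 list, at the same 3 positions, 1 of them intronic. In CVL125 it had 1, 2 and 0 calls, and landscapes 1 and 5 there listed the opposite strand of the CG in capitals above. ECA1, a calcium pump of the endoplasmic reticulum (chr1:2416178-2420829), had 6, 3 and 5 calls in CVL39 and 2, 0 and 1 in CVL125, and 6 of its 8 positions fell between 88.7 and 90.1% of its length. AT1G03910, a cactin gene (chr1:996076-1000629), had 4, 5 and 4 calls in CVL39 and 1, 2 and 1 in CVL125. AT1G07200, a gene with a double Clp-N motif (chr1:2208477-2212718), had 4, 4 and 3 and then 0, 2 and 0. In these 4 genes every CVL39 population had more calls than any CVL125 population (1.54% of arm genes), which is in part how the genes were chosen and was not tested.

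Among the genes recurrent in CVL125, ftsh10 (chr1:2304435-2312399) encodes a subunit of a mitochondrial ATP-dependent protease. It had 4, 3 and 4 calls in CVL125 and 1, 3 and 3 in CVL39, but the 2 lines shared none of its 10 positions. PPR40 (chr3:5767977-5770488), a mitochondrial pentatricopeptide repeat gene of 1 exon, had 3, 2 and 4 calls in CVL125 and 0, 0 and 1 in CVL39. AT2G03390, a gene with a uvrB/uvrC motif (chr2:1030402-1032718), had 3, 3 and 2 calls in CVL125 and none in CVL39. In PPR40 and AT2G03390 each CVL125 count was above each CVL39 count, as in 0.891% of arm genes. Both were chosen for positions recurring in CVL125, and the difference was not tested. TBL21 (chr5:5187587-5189348), of the TRICHOME BIREFRINGENCE-LIKE family, which acetylates cell wall polysaccharides, had 4, 4 and 2 in CVL125 and 3, 1 and 3 in CVL39, with 5 of its 9 positions in the start segment.

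**Figure D4:**
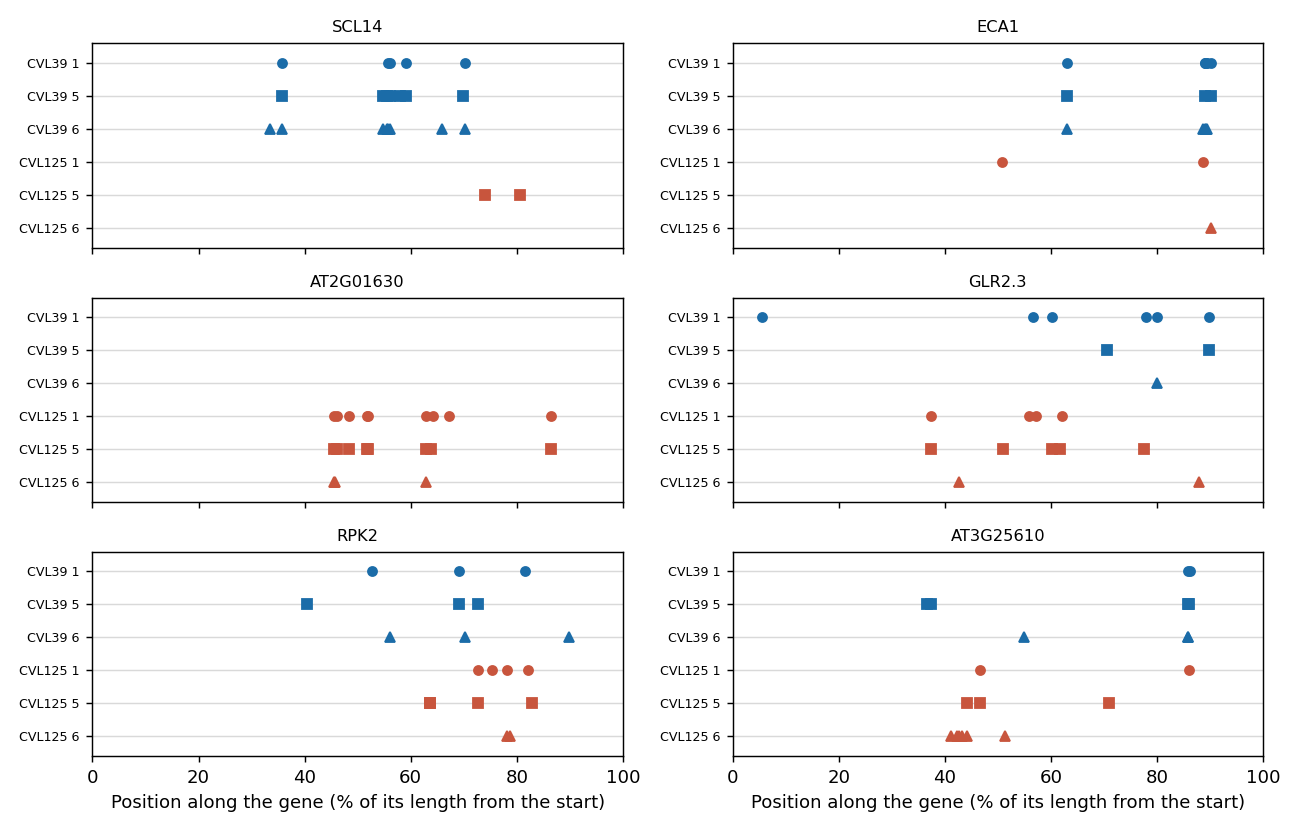
Listed CG cytosines of SCL14, ECA1, AT2G01630, GLR2.3, RPK2 and AT3G25610, placed by percent of the gene's length from its start (x axis), with 1 row for each of the 6 lists (CVL39 in blue, CVL125 in red). Positions of AT2G01630 are present in CVL125 only, those of ECA1 crowd near 90%, and RPK2 and AT3G25610 carry calls in all 6 rows.

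Many genes were hit in more than 1 population. In CVL39, 5114 genes (21.8% of arm genes) were hit in at least 1 population, and of these 2733 were hit in 1 population, 1545 in 2 and 836 (3.57% of arm genes) in all 3. In CVL125, 4844 genes (20.7%) were hit, 2791 in 1 population, 1544 in 2 and 509 (2.17%) in all 3. The median length was 1921.5 bp for genes with no call in CVL39 and 2938, 3164 and 3619.5 bp for genes hit in 1, 2 and 3 populations, and in CVL125 it was 1926.5, 3030, 3286 and 3453 bp in the same order. Lists of 1 line share their ancestral pool, so a deviation of that pool enters all 3 of them, and the recurrence within a line was not tested. The short list of CVL125 landscape 6 lowers the number shared by all 3, while 1560 genes were shared by landscapes 1 and 5 of CVL125 and 1316 by those of CVL39.

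The lines have separate ancestral pools, and 2484 genes (10.6% of arm genes) were hit in both, which is 48.6% of the genes hit in CVL39 and 51.3% of those hit in CVL125. Without CVL125 landscape 6 the number was 2274, or 44.5% and 51.4%. Of the genes with no call in CVL39, 12.9% were hit in CVL125. Both shares rose with gene length. In genes of 1 to 2 kb, 31.7% of those hit in CVL39 and 5.88% of the others were hit in CVL125. From 3 to 4 kb the shares were 49.4% and 26.5%, from 4 to 6 kb 58.9% and 34.4%, and at 6 kb and over 66.9% and 50.8%. Genes of equal length class thus still differed, which was not tested.

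Over all 6 lists, 15972 arm genes were hit in none and 7474 (31.9%) in at least 1. The number of genes fell from 3099 in exactly 1 list to 2017 in 2, 1320 in 3, 644 in 4, 296 in 5 and 98 (0.418%) in all 6. Their median length rose at each step, from 1810 bp in none through 2786 bp in 1 to 4270.5 bp in all 6.

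Among the 98 genes hit in every list, the 5 with the most calls were AT2G36810, AT1G27570, GLR2.3, AT3G25610 and RPK2. AT2G36810, an ARM repeat gene (chr2:15425321-15439642) of 51 exons, had 5, 4 and 2 calls in CVL39 and 3, 5 and 4 in CVL125. AT3G25610, a P-type ATPase gene (chr3:9308744-9313599), had 2, 4 and 3 in CVL39 and 2, 3 and 6 in CVL125. RPK2, a receptor-like kinase with roles in the meristem and the anther (chr3:380350-384582), had 3, 3 and 3 in CVL39 and 4, 4 and 2 in CVL125. RPK2 has a single exon and all of its 15 positions lay beyond 40% of its length. The counts of the lines overlapped in all 5 genes except AT1G27570, where every CVL39 count was at or above every CVL125 count.

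Single cytosines were also listed repeatedly. Of the 8947 distinct positions in CVL39, 415 (4.64%) were listed in all 3 populations, and of the 8113 in CVL125, 225 (2.77%). These recurrent positions lay in 376 and 208 genes. Their place resembled that of all CG DMCs, with 12.7%, 38.0% and 49.3% in the start, middle and end segments in CVL39 and 10.05%, 42.5% and 47.5% in CVL125. Exons held 93.4% of them in CVL39 and 92.7% in CVL125.

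Between the lines, 404 positions were shared, which is 4.52% of those of CVL39 and 4.98% of those of CVL125. For cytosines in exactly 1 gene, 4.55% of the CVL39 positions were also listed in CVL125, whereas 0.486% of the other CG cytosines of the same genes were. In the other direction the shares were 5.01% and 0.539%. Whether the cytosines that could be called were the same in both lines was not tested. By number of lists, 12737 positions were in 1, 3132 in 2, 741 in 3, 42 in 4 and 4 in 5.

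Gene families differed in how often they were hit, beside 31.9% of all arm genes hit in at least 1 list and mean densities of 1.30 and 1.13 CG DMCs per 1000 CG cytosines in CVL39 and CVL125. Families were collected by words in the annotated gene product, and each is described against all arm genes weighted to the same length classes. Pentatricopeptide repeat genes, whose proteins bind organelle transcripts, were hit in 161 of 251 cases (64.1%). Their density was 2.74 ± 0.626 per 1000 in CVL39 and 2.22 ± 0.727 in CVL125 (mean ± SD, n = 3), where genes of the same lengths had 1.21 and 1.08. RNA helicase genes were hit in 35 of 58 cases (60.3%), with 2.66 ± 0.595 and 1.98 ± 0.961 against 1.67 and 1.45. Both families had higher means than genes of equal length in both lines, by less than 1 SD for the RNA helicase genes in CVL125.

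Exocyst, COPII and other vesicle tethering genes were hit in 30 of 44 cases (68.2%), with 2.18 ± 0.265 per 1000 in CVL39 and 2.07 ± 1.21 in CVL125 against 1.56 and 1.37 at the same lengths. Kinesin genes, encoding microtubule motors, were hit in 19 of 25 cases (76.0%), with 2.24 ± 0.270 and 1.36 ± 0.621 against 1.82 and 1.54. Phosphatidylinositol kinase genes were hit in 14 of 21 cases (66.7%), at 1.96 ± 0.243 and 2.105 ± 0.917 against 1.76 and 1.49. In CVL39 the vesicle tethering and kinesin genes lay more than 1 SD above genes of equal length, and in CVL125 all 3 families lay within 1 SD of them.

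Kinesin genes had a mean above genes of equal length in CVL39 and below in CVL125, and so did 3 other families. In CVL125 each of them lay within 1 SD of genes of equal length. Leucine-rich repeat receptor kinase genes, hit in 91 of 160 cases (56.9%), had 2.07 ± 0.509 per 1000 in CVL39 against 1.66, but 1.17 ± 0.442 in CVL125 against 1.47. Aminoacyl-tRNA synthetase genes, hit in 25 of 50 cases, had 2.15 ± 0.352 against 1.58 and 1.03 ± 0.492 against 1.38. DNA repair and replication genes (32 of 65, 49.2%) had 1.74 ± 0.143 against 1.71 and 1.13 ± 0.723 against 1.46, within 1 SD in both lines. In CVL39 the leucine-rich repeat receptor kinase genes also lay within 1 SD. The differences between the lines were not tested. ABC transporter genes (23 of 42, 54.8%) had 0.974 ± 0.179 against 1.53 and 1.25 ± 0.600 against 1.35, below in both lines but within 1 SD in CVL125. All 5 HECT and UPL ubiquitin ligase genes were hit in at least 1 list, but their median length was 7189 bp. In each line 4 of them were hit, where 67.7% (CVL39) and 61.7% (CVL125) of arm genes of 6 kb and over were.

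In each of the next families a smaller share of genes was hit than the 31.9% of all arm genes. Cytochrome P450 genes were hit in 40 of 224 cases (17.9%), at 0.511 ± 0.194 per 1000 in CVL39 and 0.511 ± 0.368 in CVL125 against 1.104 and 0.985 at the same lengths. MYB and WRKY transcription factor genes (38 of 221, 17.2%) had 0.810 and 0.505 against 1.03 and 0.908. Ethylene response factor genes, with a median length of 1224 bp, were hit in 0 of 14 cases. Of all arm genes of 1 to 2 kb, 9.34% were hit in CVL39 and 8.30% in CVL125. Ribosomal protein genes were hit in 42 of 297 cases (14.1%), at 0.570 ± 0.130 and 0.765 ± 0.351 against 0.809 and 0.687. They were below genes of equal length in CVL39 and within 1 SD of them in CVL125. Histone genes were hit in 3 of 42 cases (7.14%) and genes of defensin-like and small secreted peptides in 7 of 206 (3.40%), the latter with a median length of 563.5 bp. F-box genes, also short, were hit in 132 of 540 cases (24.4%) and had 1.24 ± 0.190 and 1.18 ± 0.542 per 1000 against 0.823 and 0.700.

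**Figure D5:**
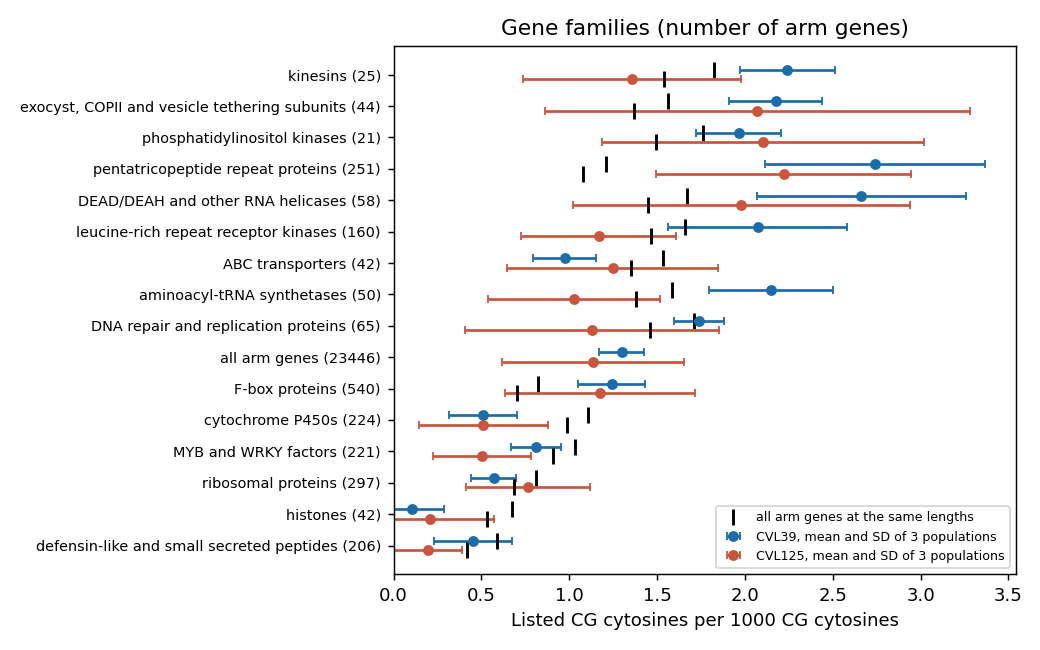
CG DMCs per 1000 CG cytosines (x axis) for gene families with 15 or more arm genes (y axis, number of genes in brackets), as mean and SD of the 3 populations of each line, with the axis starting at 0. Black ticks give all arm genes weighted to the same length classes, which the pentatricopeptide repeat genes exceed and the cytochrome P450 genes stay below in both lines.

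Genes of the machinery that copies or removes CG methylation held few calls each, though most were hit. In at least 1 list, 3 of 4 maintenance genes (median length 4215 bp) and 3 of 4 demethylase genes (6858.5 bp) were hit. Of all arm genes, which are shorter (median 2148.5 bp), 31.9% were hit. Maintenance genes had 0.877 ± 0.760 and 1.32 ± 2.28 per 1000 CG cytosines in CVL39 and CVL125, against 1.82 and 1.57 at the same lengths. Demethylase genes had 1.17 ± 1.34 and 3.21 ± 2.81, against 1.97 and 1.62. MET1 had 1 call in CVL39 landscape 6 and 2 in CVL125 landscape 5, VIM1 had 1 in CVL39 landscape 5, and the chromatin remodelling gene DDM1, annotated as CHR1, had 1 in CVL125 landscape 5. VIM2 had none. The next genes encode DNA glycosylases that remove 5-methylcytosine. ROS1, annotated as DML1, had 4, 2 and 0 calls in CVL125 landscapes 1, 5 and 6 and none in CVL39. DME had 1, 3 and 0 in CVL125 and none in CVL39. DML2 had 1, 0 and 3 in CVL39 and 0, 1 and 0 in CVL125, and DML3 had none.

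IBM1, a histone demethylase gene that protects gene bodies from non-CG methylation, had 1 call in each CVL39 list and none in CVL125. In 1.54% of arm genes each CVL39 count was likewise above each CVL125 count. The IBM1 calls lay at 2 positions, chr3:2429109 and chr3:2429110, which are both strands of 1 CG in a coding exon. CMT3, a non-CG methyltransferase gene, had 1 call in CVL125 landscape 1. SUVH4, a histone H3 lysine 9 methyltransferase gene, had 2 calls in CVL39 landscape 6 and 1 in CVL125 landscape 5. Among the genes of histone variant H2A.Z and linker histone H1, HTA9 had 1 call in CVL39 landscape 5 and HTA11 1 in CVL125 landscape 5, while HTA8 and the H1 genes AT1G06760 and AT2G30620 had none. Thus IBM1, CMT3 and SUVH4 were all hit (3 of 3), and 2 of the 5 histone genes, beside 31.9% of all arm genes. With counts this low, no difference between the lines can be read for a single gene.

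No difference between the lines was called in any of 11 measures. With 3 populations against 3 no exact permutation p could fall below 0.1, so none could have been called. The difference on the coding strand, -0.885 points (CVL39 minus CVL125), was larger than the SD of either line. The share in the end segment was 46.4 ± 0.259% in CVL39 and 46.1 ± 1.04% in CVL125 (n = 3 each, exact permutation test, p = 0.7, adjusted p = 0.88). That in exons was 93.0 ± 0.210% and 93.6 ± 1.13% (n = 3 each, exact permutation p = 0.4, adjusted p = 0.88), and that on the coding strand 64.7 ± 0.721% and 65.6 ± 0.834% (n = 3 each, exact permutation p = 0.2, adjusted p = 0.88). The median length of hit genes was 3241 ± 34.9 and 3222 ± 34.3 bp (n = 3 each, exact permutation p = 0.6, adjusted p = 0.88). Without CVL125 landscape 6, whose list was short, the difference in mean number, CVL39 minus CVL125, was -336 CG DMCs rather than 480.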

How the data were processed

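Bisulfite-converted DNA of 8 pools was sequenced on the SOLiD platform at low coverage. The authors aligned these reads with SOCS to Ler and Cvi sequences built from TAIR10, and deposited for each selected pool a list of cytosines with a p-value, made against the ancestral pool. How the lists were called, the test, the coverage minimum and the cytosines tested are not given in the sources used here, and the deposited p-values reach 0.0500. Of the 70940 nuclear rows, 99.5% fell on a cytosine of the reference when positions were counted from 0 and 13.2% when counted from 1. Positions are printed from 1.

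Protein-coding genes came from the RefSeq annotation of TAIR10.1, whose nuclear coordinates equal those of TAIR10. Left out were chromosome 1 from 11.5 to 17.7 Mb, chromosome 2 from 1.1 to 7.2 and from 17.8 to 18.3 Mb, chromosome 3 from 10.3 to 17.3 Mb, chromosome 4 from 1.5 to 6.3 Mb and chromosome 5 from 9.0 to 16.0 Mb. Place, exon and strand were counted for cytosines in exactly 1 gene (98.4% of those in arm genes), against all arm CG cytosines of the genes hit in the same list. Base differences between Ler, Cvi and the reference were not used.

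Lines were compared by two-sided exact permutation tests over 3 populations each, adjusted by Benjamini-Hochberg over 11 measures, and lists were compared with their background by exact sign-flip tests over 6 lists, adjusted over 7 measures. The landscape number names a landscape that both lines shared during selection, so it pairs populations by design. Deviations from the line mean over 877 windows of 100 kb had correlations of 0.0359, 0.0292 and 0.0799 between same-numbered lists and of -0.0709 to 0.0334 between others. Intervals are exact binomial and cover counting error only. Named genes were, per line, the 5 with the most positions recurring in all 3 populations and the 5 with the most positions, the 5 with the most calls among genes hit in all 6 lists, and 17 loci of the methylation machinery, of which VIM3 lies outside the arms. The members, loci and gene families were chosen with earlier results of these data known, and the search words of 9 families were narrowed after they had matched unrelated products. The measures were tested on simulated lists in Python 3.11.15 with numpy 2.4.6, pandas 2.3.3 and scipy 1.17.1.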

Additional observations from a re-analysis of the deposited data

How the results depend on the processing

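Directions and calls were the same under a deposited p-value of 0.005 or below, a background of all arm genes or weighted by calls, cytosines in 2 genes counted for each, exons of the longest coding transcript, genes of 1 kb or more, each CG counted once (which gives no strand or partner value) and without genes holding a non-CG row. Leaving out 1 landscape leaves 4 lists, for which the exact permutation test cannot go below p = 0.125, and leaving out CVL125 landscape 6 alone leaves 5, with a smallest exact p of 0.0625, so no difference from the background passes the threshold then. Without 1 landscape these differences were -25.4 to -25.0 points for the start segment, 10.29 to 11.1 for the middle segment, 14.3 to 14.7 for the end segment, 9.19 to 9.79 for exons, 21.5 to 22.0 for coding sequence, 15.05 to 15.2 for the coding strand and 1080 to 1086 bp for median length. Without CVL125 landscape 6 they were, in the same order, -25.1, 10.4, 14.7, 9.23, 21.5 and 15.2 points and 1078 bp.

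Of the 11 differences between lines (CVL39 minus CVL125), none of them called, 5 kept their sign whichever landscape was left out (start and middle segments, exons, coding sequence and coding strand) and 6 did not. The 6 ranged from -433.5 to 1031 in the number of CG DMCs, from -0.148 to 0.351 per 1000 CG, from -276.5 to 657.5 in genes hit, from -0.0769 to 1.07 points in the end segment, with -0.00712 without landscape 5, from -0.861 to 1.21 points for calls whose partner strand was listed, and from -19.5 to 45 bp in median length. Without CVL125 landscape 6 alone, which is the shortest list, the first 5 of these were -336, -0.114, -214, -0.0400 and -0.539.

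With landscape as a replicate block the number of CG DMCs still differed by 480 between the lines (exact permutation p = 1, smallest possible 0.25) and no call changed. The depth behind each cytosine is unknown, so an unlisted cytosine may be one that could not be tested. The background is therefore all CG cytosines of the genes and not those with reads or with methylation.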
